A study of Mus musculus with 30 samples.

Results

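The 10 genes described here are components of the transforming growth factor beta (TGF-beta) pathway that microglia are known to depend on: the ligands Tgfb1 and Tgfb2, the ligand-handling genes Nrros and Itgb8, the receptors Tgfbr1 and Tgfbr2, the signal carriers Smad2 and Smad3, and the inhibitors Smad7 and Ski. They were chosen by gene symbol, and each matched 1 of the 51752 genes in the count table. RNA was measured in 30 libraries from 15 mice, each of which gave a whole-forebrain library and a library of cells isolated from the other hemisphere with a CD11b antibody, the surface marker used to enrich microglia. The study removed interleukin-34 (IL-34), a neuron-derived ligand of the microglial receptor encoded by Csf1r, by gene deletion or by a blocking antibody. The deletion arm held 3 Il34 knockout mice (KO, animals 3, 6 and 24), and its controls were 4 Il34 heterozygotes (Het, animals 1, 20, 21 and 23), which keep 1 intact copy. The antibody arm held 4 wild-type mice given an antibody against IL-34 (anti-IL34, animals 2, 10, 11 and 24), and its controls were 4 wild-type mice given an antibody against gp120 (anti-gp120, animals 1, 7, 8 and 15). The experiments had separate controls. Animal numbers 1 and 24 occur in both, with different genotypes in the study's description, and were counted as different animals. Age, antibody dose and schedule are not stated in the labels. Het and anti-gp120 had 2 males and 2 females each, KO had 1 male and 2 females, and anti-IL34 had 3 males and 1 female. Values below follow the order of animals given here.

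TGF-beta ligands are secreted in a latent form, bound to their own propeptide, and must be released before they can signal. In the brain NRROS holds latent TGF-beta1 on the surface of microglia, and the integrin chain beta8 on neighbouring cells helps to release it. The freed ligand joins the receptors TGFBR2 and TGFBR1, which phosphorylate SMAD2 and SMAD3. SMAD7 and SKI limit that signal, SMAD7 at the receptor and SKI at target genes. Microglia need the pathway to keep their tissue-specific gene expression.

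Total counts per library ran from 15064391 to 75158213. Il34, the deleted gene, was at 21.4 ± 2.37 CPM (counts scaled to library size, SD, n = 4) in Het forebrain and 7.72 ± 0.991 (n = 3) in KO forebrain. In the isolates it was low in both, at 4.89 to 9.82 CPM in Het and 5.14 to 6.67 in KO, with overlap, so those libraries do not check the deletion. Most microglia markers were abundant in the isolates, for example Csf1r at a median of 2989 CPM against 43.7 in forebrain. Of the 14 microglia markers, Irf8 was listed at 0 in all libraries and Itgam, which encodes CD11b itself, at 7 counts in all libraries together. The isolates also carried astrocyte RNA. The summed CPM of 9 astrocyte markers was 3273 to 11300 in Het, 12830 to 15820 in KO, 4835 to 18630 in anti-gp120 and 10260 to 18920 in anti-IL34 isolates. The summed CPM of the microglia markers was 10830 to 19340, 4452 to 5103, 14020 to 20550 and 7372 to 11360 in the same order. The Het isolates of animals 1 and 21 and the anti-gp120 isolate of animal 15 stood apart. Animal 21 had the lowest astrocyte sum of all 15 isolates, animal 1 the highest of the Het arm, and animal 15 the highest of the anti-gp120 arm. In bulk RNA such as this, fewer cells of a type and less RNA per cell cannot be told apart.

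In control animals, 9 of the 10 genes were higher in the isolates than in forebrain, while Itgb8 was not. The tissue contrast used the 16 libraries of the 8 Het and anti-gp120 animals and edgeR's quasi-likelihood test with Benjamini-Hochberg adjustment, which called 83.5% of 19952 genes. Of these 19952, 8085 were called higher in the isolates and 8578 lower. The highest ratios were those of Tgfb1, whose log2 difference was 5.47 (SE 0.167), of Nrros with 5.14 (SE 0.125) and of Tgfbr1 with 4.88 (SE 0.132). Tgfbr2 followed with 4.40 (SE 0.127) and Smad7 with 3.47 (SE 0.114). Smad3, Ski, Smad2 and Tgfb2 differed less, by 1.81, 1.42, 1.02 and 1.01. The 12 microglia markers that could be tested had a median of 5.65 in this contrast, the astrocyte markers 0.58 and the neuron markers -4.26. Itgb8 was -0.42 (SE 0.233, edgeR adjusted p = 0.102). With animals entered as replicate blocks it was -0.54 and passed (edgeR adjusted p = 0.0226).

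Per kilobase of exon, the order of the genes also differed between tissues. Tgfbr1 led in the isolates of every arm, with a mean of 177 CPM per kilobase in Het isolates and 179 in anti-gp120 isolates. Ski was next with 60.6 and 76.4. Smad7, Tgfbr2, Nrros and Tgfb1 lay close together between 35.5 and 48.2 in Het isolates, where the libraries of each gene overlapped those of the next. Smad3 followed with 29.3, and Smad2, Tgfb2 and Itgb8 were lowest, between 7.44 and 9.60. In Het forebrain Ski led with 26.2 and Itgb8 was next with 10.2, while Tgfb1 was lowest with 0.869. The deposited TPM values divide by the whole gene span with introns. On that scale too Tgfbr1 led in the isolates of every arm and Ski in the forebrain of every arm, but Ski was the fifth in the isolates.

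**Figure D1:**
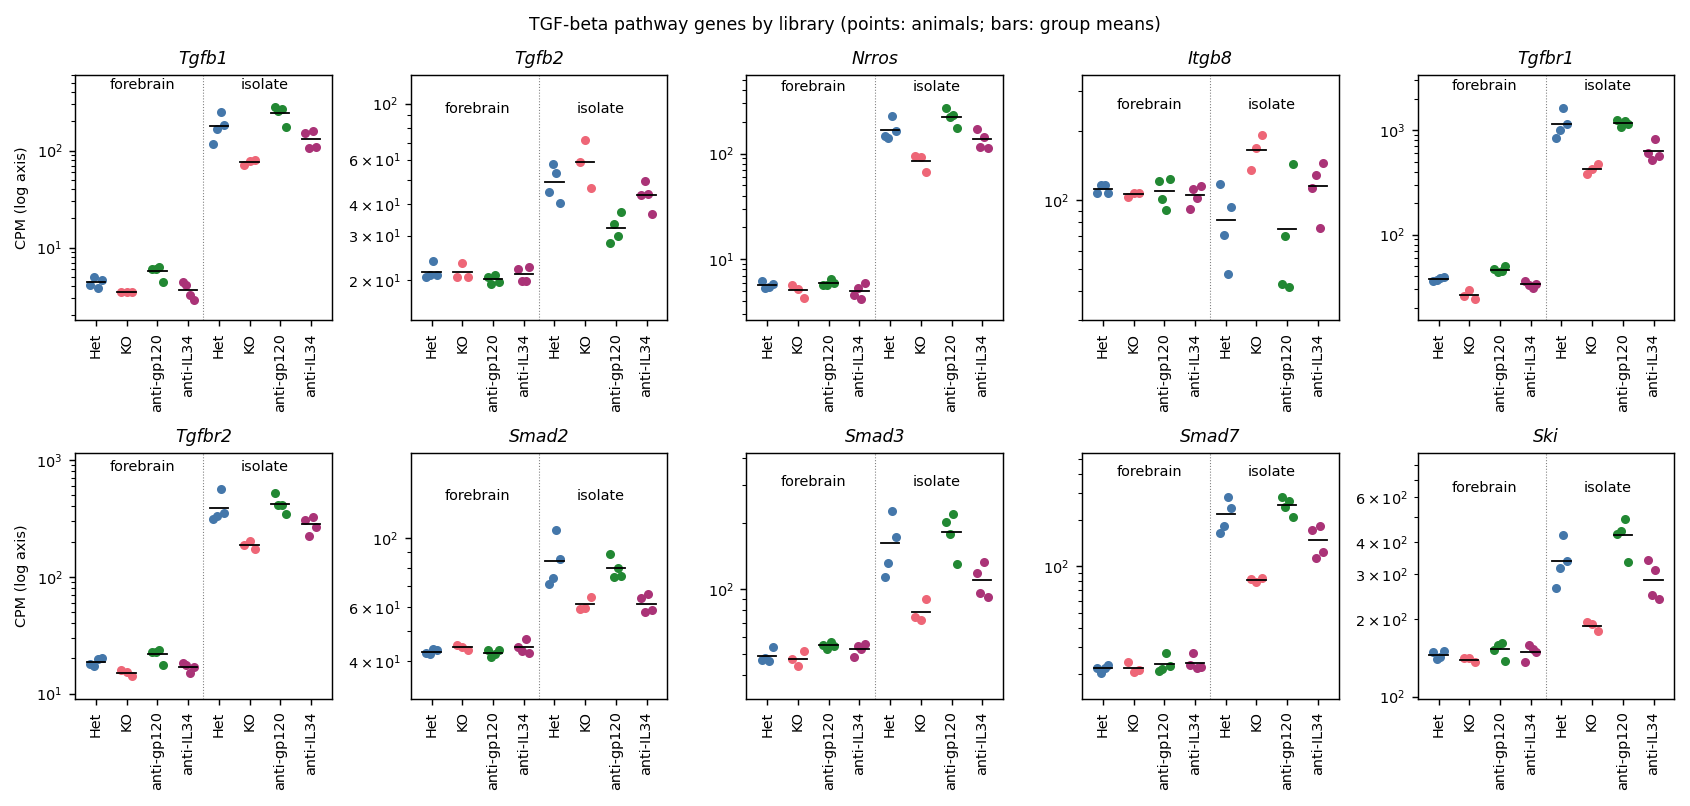
Each panel shows 1 gene, with CPM on a log axis and the 8 groups along the horizontal axis, forebrain on the left and CD11b isolates on the right. Points are animals and bars are group means. Tgfb1, Nrros, Tgfbr1, Tgfbr2 and Smad7 sit far higher in the isolates, and their KO isolates lie below all Het isolates. Itgb8 is at a like level in both tissues and its KO isolates lie above all Het isolates.

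With IL-34 loss, 8 of the 10 genes had negative log2 changes in the isolates of both experiments, and Tgfbr1 was lower in whole forebrain. Not all of the isolate differences passed the threshold, and the isolate calls depended on single animals, as described below. In KO against Het isolates, 4 of the 10 fell (Tgfb1, Tgfbr1, Smad7 and Nrros) and none rose at an edgeR adjusted p under 0.05. That threshold was passed by 5.37% of 18185 genes. At an unadjusted p under 0.05 were 9 of the 10, and 32.6% of all genes. DESeq2 called 8 (21.4% of all genes), and limma voom with sample weights called 9 (29.6%). Groups did not overlap for 9 of the 10, compared with 38.7% of all genes, 8 of them lower and Itgb8 higher. The members' median log2 change was -0.98, that of all genes 0.02. In anti-IL34 against anti-gp120 isolates none of the 10 passed by edgeR, and 0.626% of 17570 genes did. There 9 of the 10 had an unadjusted p under 0.05 (25.9% of all genes did), and 8 passed with DESeq2 (11.5% of all genes) and 10 with limma voom and sample weights (39.7%). Groups did not overlap for 6 of the 10, all lower, compared with 16.9% of all genes. The members' median was -0.63 there, and that of all genes 0.06.

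In whole forebrain only Tgfbr1 passed by edgeR, in both experiments, and it was lower. With the antibody, Tgfb1 and Tgfbr2 passed there with DESeq2, which called 1.15% of all genes. The edgeR test called 0.62% of 19343 genes in KO against Het and 0.717% of 17143 in anti-IL34 against anti-gp120. After deletion 4 of the 10 genes had arms without overlap, all lower (Tgfb1, Tgfbr1, Tgfbr2 and Itgb8), compared with 9.05% of all genes. With the antibody they did not overlap for 1, compared with 3.27% of all genes. The members' median log2 change in forebrain was -0.07 after deletion and -0.06 with the antibody.

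Marker genes moved in the same samples. The median log2 change of the tested microglia markers was -1.30 and -1.06 in forebrain (deletion, then antibody) and -1.44 and -0.69 in the isolates. In the isolates the astrocyte markers had medians of 0.94 and 0.68, the oligodendrocyte-lineage markers 0.83 and 0.66, and the neuron markers 0.99 and 0.94. All 9 astrocyte markers were higher in both isolate comparisons, though none of them passed the threshold by edgeR, with 4 (deletion) and 0 (antibody) at an unadjusted p under 0.05 and as many called by DESeq2. Of all genes 32.6% and 25.9% had such a p, and DESeq2 called 21.4% and 11.5%. By limma voom with sample weights 9 and 8 passed, as 29.6% and 39.7% of all genes did. Their part in the members' differences was not tested.

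**Figure D2:**
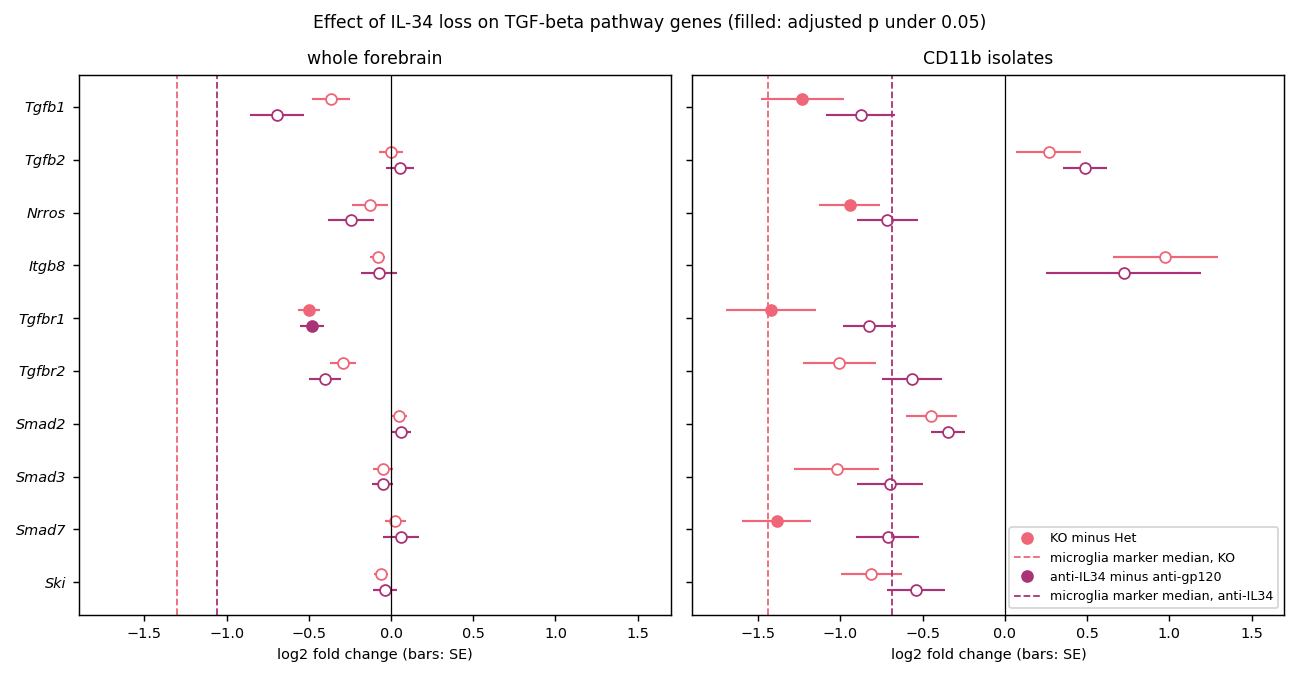
Log2 fold changes (horizontal axis, bars are SE) of the 10 genes in whole forebrain (left) and CD11b isolates (right), for KO minus Het and anti-IL34 minus anti-gp120. Filled points passed an adjusted p of 0.05, and dashed lines mark the median of the microglia markers. In the isolates 8 genes lie below 0 and Tgfb2 and Itgb8 above it. In forebrain all 10 lie nearer to 0 than the lines.

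Tgfb1, the TGF-beta ligand that microglia make, spans positions 25687002 to 25705077 on the plus strand of chromosome 7 (GRCm38, as are all positions here). In the isolates it was at 116, 166, 250 and 184 CPM in Het and at 71.4, 77.3 and 79.1 in KO. All KO isolates were below all Het isolates, and the KO values lay close together. The log2 change was -1.23 (SE 0.252, edgeR adjusted p = 0.0423), a fall to 42.6% of the control level. With the antibody the isolates held 153, 107, 159 and 110 CPM against 285, 259, 269 and 176 in anti-gp120. The groups did not overlap, with the anti-gp120 isolate of animal 15 nearest to the treated ones. The change was -0.88 (SE 0.210) and missed the threshold (edgeR adjusted p = 0.082).

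In whole forebrain Tgfb1 was scarce, at 4.06, 5.02, 3.86 and 4.58 CPM in Het and 3.46, 3.47 and 3.45 in KO. KO forebrains were all below Het forebrains, by -0.36 on the log2 scale (SE 0.117), which did not pass (edgeR adjusted p = 0.394). It was at 6.07, 5.94, 6.37 and 4.39 CPM in anti-gp120 and 4.42, 4.08, 3.21 and 2.89 in anti-IL34 forebrain, where animal 15 of the controls overlapped the treated group. That difference was -0.69 (SE 0.166, edgeR adjusted p = 0.142), and it passed with DESeq2 (adjusted p = 0.024).

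Tgfb2, the second ligand, known from astrocytes, neurons and choroid plexus, lies on the minus strand of chromosome 1 at 186622792 to 186705989. An antisense gene, Gm29491, overlaps its exons. That gene held 132 counts in all libraries together against 33273 for Tgfb2. In the isolates it was at 44.8, 57.7, 53.3 and 40.4 CPM in Het, 58.6, 71.8 and 46.1 in KO, 28.1, 33.2, 29.8 and 37.1 in anti-gp120, and 43.6, 49.2, 43.8 and 36.5 in anti-IL34. The treated and control isolates overlapped in both experiments, and the anti-gp120 isolates were below all Het isolates. Tgfb2 was 0.27 higher on the log2 scale after deletion (SE 0.197, edgeR adjusted p = 0.362) and 0.48 higher with the antibody (SE 0.134, edgeR adjusted p = 0.106). In forebrain it stayed between 19.2 and 23.7 CPM in all 15 libraries. The summed CPM of 8 choroid plexus markers was 1655 to 3931 in Het, 1154 to 3098 in KO, 5.92 to 11.0 in anti-gp120 and 10.3 to 2142 in anti-IL34 isolates, and its part in the Tgfb2 levels was not tested.

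The ratio of the ligands per kilobase of exon followed these levels. Tgfb1 was 2.97 to 5.39 times Tgfb2 in Het isolates, 1.24 to 1.97 times in KO, 5.46 to 11.6 times in anti-gp120 and 2.49 to 4.16 times in anti-IL34. In both experiments the ratio was lower in every treated isolate than in every control isolate. In forebrain Tgfb1 was below Tgfb2 per kilobase of exon in every library, at 0.147 to 0.355 of its level. That order rests on the length used, and whether the counts include intronic reads is not given in the sources used here. On the deposited TPM scale the forebrain ratio was 0.748 to 1.10 in Het and 1.03 to 1.42 in anti-gp120, and below 1 in every KO and anti-IL34 forebrain. In the isolates it was 4.96 to 46.7 on that scale, again lower in every treated than in every control isolate of the same experiment.

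Nrros, which anchors latent TGF-beta1 on microglia (chromosome 16, 32142785 to 32165594, minus strand), was at 148, 141, 225 and 162 CPM in Het isolates and 94.1, 92.0 and 67.2 in KO isolates. The KO isolates were all below the Het isolates. The fall was -0.94 on the log2 scale (SE 0.185, edgeR adjusted p = 0.0373). With the antibody Nrros was at 171, 116, 143 and 114 CPM against 268, 223, 233 and 173 in anti-gp120. The groups came within a few CPM of each other but did not overlap. The difference was -0.72 (SE 0.185) and missed the threshold (edgeR adjusted p = 0.0948). In forebrain Nrros ran from 4.20 to 6.50 CPM over all arms, the arms overlapped in both experiments, and the changes were -0.13 (SE 0.110) and -0.24 (SE 0.141).

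The ratio of Nrros to Tgfb1 counts, the anchor to its ligand, was not tested and overlapped between the arms of each experiment in the isolates. It ran from 0.845 to 1.27 in Het, 0.850 to 1.32 in KO, 0.860 to 0.982 in anti-gp120 and 0.898 to 1.12 in anti-IL34.

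Itgb8, the integrin chain that activates latent TGF-beta (chromosome 12, 119158022 to 119238802, minus strand), moved the other way in the isolates. It was at 118, 70.7, 47.5 and 92.9 CPM in Het and 136, 169 and 193 in KO isolates, and no KO isolate was as low as any Het isolate. The difference was 0.98 on the log2 scale (SE 0.321) and did not pass (edgeR adjusted p = 0.113). With the antibody Itgb8 was at 43.2, 69.6, 41.8 and 144 CPM in anti-gp120 and 113, 129, 75.6 and 146 in anti-IL34 isolates. The arms overlapped through animal 15 of the controls, and the difference of 0.72 (SE 0.473, edgeR adjusted p = 0.32) was 1.22 without it (edgeR adjusted p = 0.00666). Every member passed in the fit without that animal. In forebrain Itgb8 was at 90.9 to 124 CPM in all libraries, and its changes were -0.08 (SE 0.0442) and -0.07 (SE 0.111). Over the 15 isolates, deviations of Itgb8 from the arm means had a Pearson correlation of 0.957 with the astrocyte, 0.896 with the oligodendrocyte-lineage and 0.851 with the neuron markers, and of -0.835 with the microglia markers. With arm differences kept in, these were 0.893, 0.939, 0.831 and -0.858. These values share libraries and depth and are a description only.

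Tgfbr1, the signalling receptor kinase, was the only member past the threshold by edgeR in more than 1 of the 4 arm comparisons, so its upstream sequence is shown. It lies on the plus strand of chromosome 4 at 47353222 to 47414931. RefSeq (GRCm38.p6) gives it 2 starts, and the 250 bases before each are printed below 5′ to 3′. The main start is preceded by the window chr4:47352972-47353221, outside the annotated gene. The second lies inside the gene, after the window chr4:47385966-47386215, which overlaps no annotated exon. Capitals mark GAGGAA, the core letters of sites for PU.1, a transcription factor of the macrophage lineage, and CAGACA, part of the Smad CAGA box. Both strands were searched and the motifs do not overlap.
Tgfbr1 main start: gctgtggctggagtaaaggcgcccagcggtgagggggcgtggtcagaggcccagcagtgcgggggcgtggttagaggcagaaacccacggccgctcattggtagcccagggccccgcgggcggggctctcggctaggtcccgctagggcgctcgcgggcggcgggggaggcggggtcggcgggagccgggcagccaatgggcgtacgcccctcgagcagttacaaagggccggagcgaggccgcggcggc
Tgfbr1 second start: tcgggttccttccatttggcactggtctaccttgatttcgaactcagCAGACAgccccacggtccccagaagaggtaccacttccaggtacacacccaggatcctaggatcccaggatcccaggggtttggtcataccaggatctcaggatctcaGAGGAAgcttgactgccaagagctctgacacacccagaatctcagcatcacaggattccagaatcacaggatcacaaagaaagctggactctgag
The main window holds neither motif. The second holds CAGACA at -203 and GAGGAA at -95 from its start, both on the plus strand. Over 32851 RefSeq windows of the same length, 23.3% held GAGGAA and 17.1% held CAGACA. These are matches of letters only.

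In whole forebrain Tgfbr1 was at 36.0, 36.7, 38.5 and 38.9 CPM in Het and 25.8, 29.5 and 24.1 in KO. All KO forebrains were lower, and the fall was -0.50 on the log2 scale (SE 0.067, edgeR adjusted p = 0.00325), to 70.8% of the control level. Forebrains of the antibody experiment held 46.6, 43.6, 44.4 and 49.6 CPM with anti-gp120 and 36.1, 32.9, 30.6 and 33.6 with anti-IL34. Again the arms did not overlap, and Tgfbr1 fell by 0.48 (SE 0.0745, edgeR adjusted p = 0.0137), to 71.7% of the control level. The first call was lost without KO animal 3 (edgeR adjusted p = 0.0672). The second was lost without anti-gp120 animal 1 (0.0675) or anti-IL34 animal 11 (0.189).

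In the isolates Tgfbr1 was the most abundant member, at 844, 1009, 1626 and 1147 CPM in Het and 379, 425 and 478 in KO. The highest KO isolate was well below the lowest Het isolate, and the fall was -1.42 on the log2 scale (SE 0.273, edgeR adjusted p = 0.0348). The antibody experiment gave 1240, 1070, 1229 and 1134 CPM in anti-gp120 and 604, 516, 825 and 561 in anti-IL34 isolates. These arms did not overlap either. The difference was -0.82 (SE 0.160) and narrowly missed the threshold (edgeR adjusted p = 0.057). DESeq2 gave an adjusted p of 2.04e-05.

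Tgfbr2, the receptor that binds the ligand first (chromosome 9, 116084293 to 116175360, minus strand), was at 313, 329, 562 and 354 CPM in Het isolates and 185, 203 and 172 in KO isolates. The KO isolates were all lower, and the difference of -1.01 on the log2 scale (SE 0.225) just missed the threshold (edgeR adjusted p = 0.0527). Animal 21 stood above the other Het isolates; without it the adjusted p was 0.0119. With the antibody Tgfbr2 was at 522, 408, 414 and 344 CPM in anti-gp120 and 308, 223, 326 and 264 in anti-IL34 isolates, with no overlap. That difference was -0.57 (SE 0.182, edgeR adjusted p = 0.138).

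Whole-forebrain Tgfbr2 was at 17.8, 17.1, 19.9 and 20.0 CPM in Het and 16, 15.2 and 14.1 in KO, without overlap (-0.29, SE 0.0768, edgeR adjusted p = 0.201). With the antibody it was at 18.4, 17.4, 15.1 and 17.0 CPM against 22.9, 22.5, 23.7 and 17.7, where animal 15 of the controls made the arms overlap. The difference of -0.40 (SE 0.0965, edgeR adjusted p = 0.145) passed without that animal (0.04) and with DESeq2 (0.0204).

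Neither Smad2 nor Smad3, the receptor-activated signal carriers, passed by edgeR in a comparison of arms. Smad3 (chromosome 9, 63646767 to 63757994, minus strand) was at 114, 132, 229 and 174 CPM in Het and 74.6, 71.7 and 89.7 in KO isolates. The arms did not overlap, and the difference was -1.02 on the log2 scale (SE 0.258, edgeR adjusted p = 0.0723). Smad3 in the antibody isolates was 118, 95.8, 133 and 91.5 CPM against 203, 179, 221 and 130, a difference of -0.70 (SE 0.199, edgeR adjusted p = 0.111) with a narrow overlap at animal 15 of the controls.

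Smad2 (chromosome 18, 76241580 to 76310963, plus strand) had the smallest differences among the members with lower levels. It was at 71.4, 74.7, 106 and 85.5 CPM in Het and 59.0, 59.7 and 64.7 in KO isolates, and at 88.9, 75.2, 80.4 and 75.3 in anti-gp120 and 64.0, 57.8, 65.9 and 58.5 in anti-IL34 isolates. Neither pair of arms overlapped. The differences were -0.45 (SE 0.153, edgeR adjusted p = 0.119) and -0.34 (SE 0.102, edgeR adjusted p = 0.119). In forebrain Smad2 stayed between 41.3 and 47.4 CPM and Smad3 between 44.1 and 57.0 over all 15 libraries. Their forebrain changes lay between -0.05 and 0.06, with an SE of at most 0.0653.

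Smad7, the inhibitor that TGF-beta itself induces (chromosome 18, 75367529 to 75395935, plus strand), had the smallest adjusted p of the members in the KO isolates. It was at 165, 184, 283 and 240 CPM in Het and 83.2, 79.5 and 83.9 in KO isolates. The KO values were nearly equal and all far below the lowest Het isolate. The fall was -1.39 on the log2 scale (SE 0.208, edgeR adjusted p = 0.0184), to 38.2% of the control level. In the antibody experiment it was at 282, 243, 268 and 209 CPM in anti-gp120 and 172, 113, 182 and 125 in anti-IL34 isolates. Those arms did not overlap, and the difference was -0.71 (SE 0.190, edgeR adjusted p = 0.101).

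In forebrain Smad7 was at 20.4 to 22.7 CPM in Het, 20.5 to 23.9 in KO, 21.0 to 27.3 in anti-gp120 and 21.9 to 27.4 in anti-IL34. The arms overlapped, with changes of 0.02 (SE 0.0636) and 0.06 (SE 0.110). The ratio of Smad7 to Smad3, the inhibitor to its signal carrier, was 1.23 to 1.45 in Het isolates and 0.935 to 1.11 in KO isolates, without overlap. In the antibody experiment it was 1.21 to 1.60 and 1.18 to 1.47, with overlap.

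Ski, a co-repressor that binds Smad complexes on DNA (chromosome 4, 155154075 to 155222592, minus strand), was at 265, 317, 427 and 339 CPM in Het and 195, 192 and 181 in KO isolates. All KO isolates were lower, and the difference of -0.81 on the log2 scale (SE 0.184) just missed the threshold (edgeR adjusted p = 0.055). With the antibody it was at 340, 250, 312 and 241 CPM against 431, 442, 492 and 336 in anti-gp120. The arms overlapped at animal 15 of the controls, with a difference of -0.54 (SE 0.178, edgeR adjusted p = 0.142). Ski in forebrain lay between 136 and 162 CPM in every library, with changes of -0.06 (SE 0.0423) and -0.04 (SE 0.0722).

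The calls in the isolates depended on single animals. The 4 genes that fell in KO isolates each passed in 2 of 7 fits that left out 1 animal, those without Het animal 1 and without Het animal 21. In the other 5 fits none of the 10 passed, and the log2 changes of these 4 stayed between -1.51 and -0.84. Without KO animal 3, the only KO male, the adjusted p was highest for each of them, from 0.188 for Smad7 to 0.306 for Tgfbr1. In the antibody isolates all 10 passed without anti-gp120 animal 15, and only Tgfbr1 without anti-IL34 animal 11. None passed in the other 6 fits. With all animals, 976 genes passed in KO isolates and 110 in anti-IL34 isolates. Leaving out 1 animal changed these counts over all genes widely too, as given below.

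**Figure D3:**
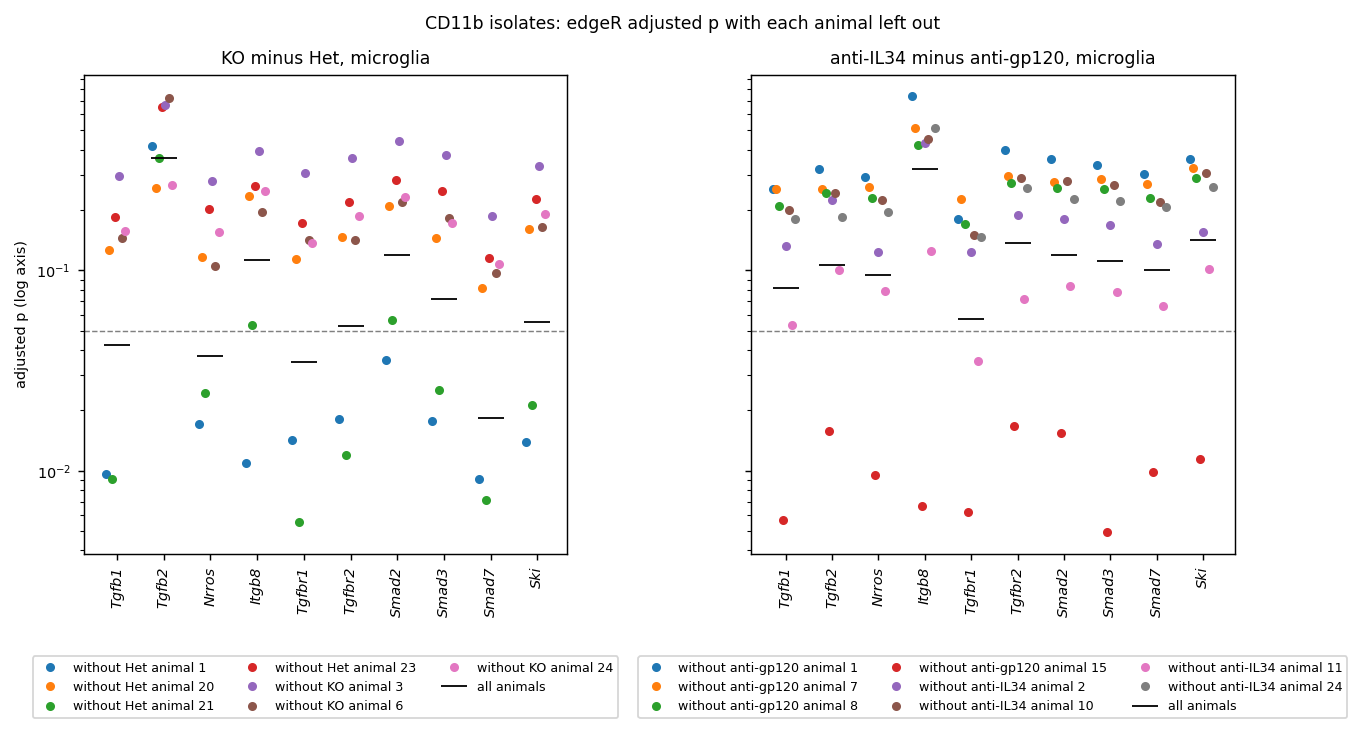
Adjusted p from edgeR (log axis) of each gene in the isolates when 1 animal is left out (coloured points) and with all animals (black bars), for deletion (left) and antibody (right). The dashed line is 0.05. In the deletion experiment the points below the line come from fits without Het animal 1 or 21. In the antibody experiment all 10 genes are below it without anti-gp120 animal 15.

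Whether the isolates responded differently from forebrain was tested as an interaction of arm and tissue. In the deletion experiment, where 2.98% of 20107 genes passed, 1 of the 10 did. Smad7 differed by -1.39 (SE 0.226, edgeR adjusted p = 0.015), or by -1.50 relative to the median interaction of all genes, which was 0.12. It passed in 2 of 7 fits that left out 1 animal. Once animals entered as replicate blocks it was -1.36 and did not pass (edgeR adjusted p = 0.0889), and no gene passed in that fit. Relative to the same median, the other members with lower levels lay between -0.59 for Smad2 and -1.07 for Smad3, and Itgb8 was at 0.97. In this experiment 9 of the 10 had an unadjusted p under 0.05, as 31% of all genes did. DESeq2 called as many of the 10, and 18.1% of all genes. In the antibody experiment, where 0.0924% of 18399 genes passed, none of the 10 did by edgeR. There 5 had an unadjusted p under 0.05, as 21.1% of all genes did, and 2 passed with DESeq2, as 5.94% of all genes did.

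The effects of deletion and antibody on the 10 genes were not told apart. None of the 10 passed for the difference of the effects in forebrain, where 0.0101% of 19724 genes did, or in the isolates, where 0% of 18732 genes did. In the isolates 740 genes had an unadjusted p under 0.05 and DESeq2 called 35. No member passed with DESeq2 in either tissue. Unadjusted, 1 member was under 0.05, Smad7 in the isolates, with a difference of -0.66 (SE 0.287, edgeR adjusted p = 1.00). For Tgfbr1 the difference was -0.03 (SE 0.102) in forebrain and -0.59 (SE 0.304) in the isolates. The SE in the isolates ran from 0.181 for Smad2 to 0.597 for Itgb8, so differences of the size of the effects themselves were within the error for several members.

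Other genes of the pathway were read from 4 lists, beside the 5.37% of all genes that passed in KO isolates, the 32.6% with an unadjusted p under 0.05 there and the 21.4% that DESeq2 called. There 2 of 14 tested genes of ligand storage and activation fell, the integrin chains Itgb3 (-1.21, SE 0.158) and Itgb5 (-1.33, SE 0.212). Of 12 other receptors, Tgfbrap1, which binds the receptor complex (-0.69, SE 0.123), and the activin receptor Acvr1 (-0.73, SE 0.141) fell. Of 21 signal regulators 4 fell: Pmepa1 and Ldlrad4, which hold back Smad activation, with -1.07 and -0.92, the ubiquitin ligase Rnf111 with -0.65, and the repressor Tgif2 with -1.55. None of the 5 other Smad genes passed (2 had an unadjusted p under 0.05, and DESeq2 called 2), among them Smad4, the shared partner of SMAD2 and SMAD3, with -0.23 (SE 0.132). None of the genes in these lists rose by edgeR, and 5 did by DESeq2: Mmp14, Bmpr1a, Bmpr1b, Smad9 and Sptbn1. The medians of these 4 lists lay between -0.27 and 0.12.

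In the other 3 comparisons of arms these lists together had 1 edgeR call or none, where 0.62% (KO forebrain), 0.717% (anti-IL34 forebrain) and 0.626% (anti-IL34 isolates) of all genes passed. Itgb5 fell by 0.67 on the log2 scale (SE 0.127, edgeR adjusted p = 0.0408) in anti-IL34 forebrain, and Tgfbrap1 fell by 0.71 (SE 0.108, edgeR adjusted p = 0.0399) in anti-IL34 isolates. None passed in KO forebrain by edgeR (DESeq2 called 1, and 0.92% of all genes), where Itgb5 was lowest in p with -0.31 (SE 0.0684, edgeR adjusted p = 0.0777). In anti-IL34 isolates 3 of 14 storage and activation genes and 2 of 12 other receptors had an unadjusted p under 0.05, in either direction. So did 1 of 5 other Smad genes and 8 of 21 signal regulators, and 25.9% of all genes.

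Targets of TGF-beta were read from 3 lists. Of 17 genes that TGF-beta induces in many cell types, 4 fell in KO isolates, among them Smad7, Pmepa1 and Ldlrad4, also counted above. None of the 17 passed in the other arm comparisons by edgeR, with 2 (KO forebrain), 1 (anti-IL34 forebrain, where 16 were tested) and 8 (anti-IL34 isolates) at an unadjusted p under 0.05 and 0, 1 and 4 by DESeq2. Of all genes 7.45%, 4.86% and 25.9% had such a p, and DESeq2 called 0.92%, 1.15% and 11.5%. Of 15 genes whose expression in microglia is known to depend on TGF-beta signalling, 14 fell in KO isolates, 10 in anti-IL34 isolates, and 9 in the forebrain of each experiment, of 15 tested after deletion and 14 with the antibody. Of all genes 5.37%, 0.626%, 0.62% and 0.717% passed in KO isolates, anti-IL34 isolates, KO forebrain and anti-IL34 forebrain. With 1 animal left out, 8 to 9 passed in KO forebrain and 8 to 10 in anti-IL34 forebrain, while the isolate counts hung on single animals. In KO isolates 15 passed without Het animal 1 or 21 and 0 without any other animal. In anti-IL34 isolates, leaving out control animal 15 gave 15, leaving out treated animal 11 gave 12, and the other 6 fits gave 0 or 1. Counts over all genes changed widely between these isolate fits too, as given below. In the order KO isolates, anti-IL34 isolates, KO forebrain and anti-IL34 forebrain, the medians of the listed genes were -1.63, -1.40, -1.20 and -1.62. In KO isolates they included Tmem119 (-1.92, SE 0.181), the transcription factor Sall1 (-1.42, SE 0.162), the lens-crystallin gene Crybb1 (-2.13, SE 0.136) and the fructose transporter Slc2a5 (-2.07, SE 0.183). The purinergic receptor P2ry12 fell by 1.85 (SE 0.083) in KO forebrain and by 2.18 (SE 0.072) in anti-IL34 forebrain. Some of these genes, such as Sparc and Mertk, are known from other brain cells too. The microglia markers, none of which is in the list, had medians of -1.44, -0.69, -1.30 and -1.06 in the same order. By edgeR, 11 of 12 tested microglia markers fell in KO forebrain, 8 of 12 in anti-IL34 forebrain and 1 of 12 in anti-IL34 isolates. The part of the lower microglia markers in these counts was not tested.

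Of 13 genes known to rise when microglia lose TGF-beta signalling, none passed by edgeR in any of the 4 comparisons, in either direction. All 13 were tested in the isolates, 11 in KO forebrain and 9 in anti-IL34 forebrain. At an unadjusted p under 0.05 there were 3 in KO isolates, 5 in anti-IL34 isolates, 4 in KO forebrain and 2 in anti-IL34 forebrain, where 32.6%, 25.9%, 7.45% and 4.86% of all genes were. DESeq2 called none in KO isolates, 4 in anti-IL34 isolates (2 of them higher, Axl and Apoe), and 1 lower gene in each forebrain comparison. Of all genes DESeq2 called 21.4%, 11.5%, 0.92% (KO forebrain) and 1.15% (anti-IL34 forebrain). Their medians were -0.30 in KO isolates, 0.08 in anti-IL34 isolates, -0.12 in KO forebrain and -0.02 in anti-IL34 forebrain. The receptor kinase Axl had the smallest p among them in anti-IL34 isolates, with 0.87 (SE 0.168, edgeR adjusted p = 0.0566), and it was at 0.29 (SE 0.121) in KO isolates.

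Within arms, 8 of the members varied together with the microglia markers. Over the 15 isolates, deviations from the arm means had a Pearson correlation with the mean of the microglia markers of 0.936 for Tgfbr2, 0.930 for Tgfb1, 0.910 for Smad7 and 0.906 for Smad3. It was 0.882 for Smad2, 0.858 for Tgfbr1, 0.834 for Ski and 0.763 for Nrros. Tgfb2 had -0.156, and 0.509 with the choroid plexus markers. The points share libraries, depth and scaling, so these are descriptions.

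**Figure D4:**
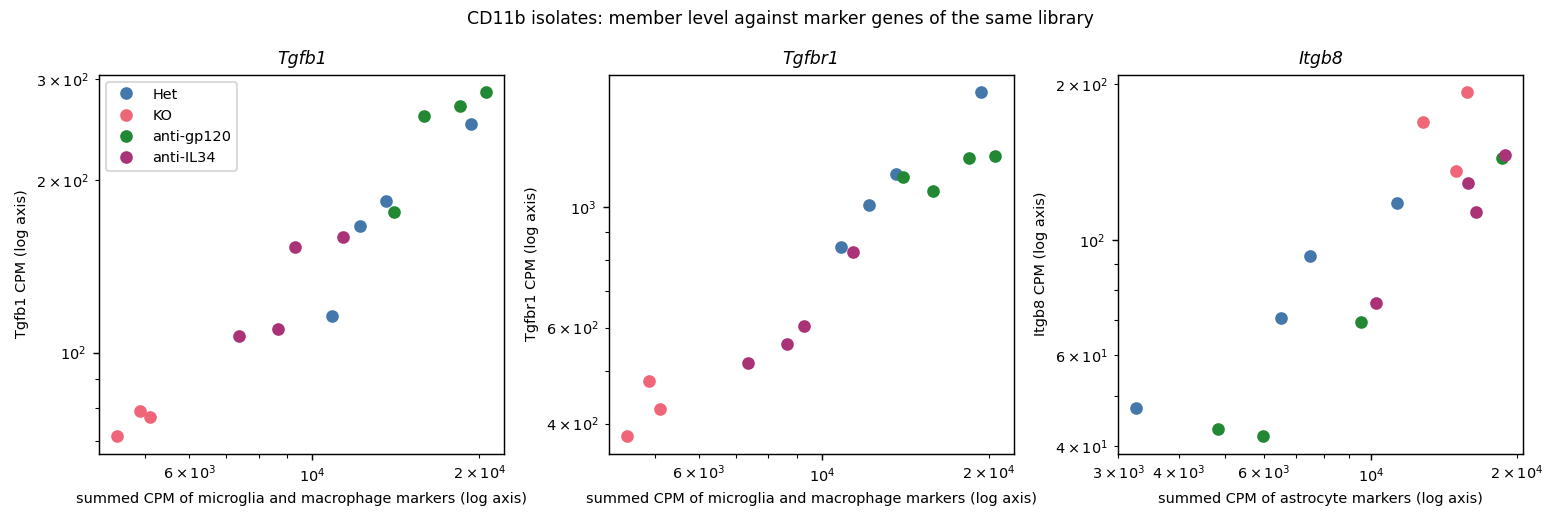
Levels of Tgfb1 and Tgfbr1 against the summed microglia markers, and of Itgb8 against the summed astrocyte markers, in the 15 isolates (CPM on log axes, 1 point per animal, coloured by arm). Tgfb1 and Tgfbr1 rise with the microglia markers, with KO isolates at the low end. Itgb8 rises with the astrocyte markers, and the anti-gp120 isolate of animal 15 lies among the anti-IL34 isolates.

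Among 8743 genes with a mean of at least 4 log2 CPM in the isolates, those most like each member over the 15 libraries were found by Pearson correlation. Among those most like Tgfb1 were Mob3c (0.993) and Wdr81, and Tgfbr1 was most like Dock10 (0.993), Pip4k2a and Pde3b. Tgfbr2 was most like Usp8 (0.986), Wdr44 and Lcp2, and Nrros most like Jun (0.969), Tln1 and Tmem86a. Smad3 was most like Stx7 (0.993), Trpc4ap and Dyrk2, Smad7 most like Rptor (0.994), Vav1 and Il21r, and Smad2 most like Ap1g1 (0.983), Slc4a7 and Sf3b3. Ski was most like Slc38a7 (0.989), then Tgfb1 itself and Flcn. The genes most like Itgb8 were Igsf11 (0.991), Rab23 and Nipa1. Among those most like Tgfb2 were Igfbp2 (0.959) and Stk39.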

How the data were processed

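The 15 forebrain and 15 CD11b-isolate RNA samples were prepared with a SMART-Seq v4 kit for low input, as the labels' protocols state. The authors deposited unnormalised read counts per gene. STAR 2.7.5c, featureCounts 1.6.3, R 4.4.0 and the build GRCm38 are named in the submitters' processing notes, which give no roles, and strand use is not given in the sources used here. The deposited Length, another unit, was the whole gene span in GENCODE M21 for all 10 members. The deposited TPM values equal count over that Length, scaled to a fixed sum (largest relative deviation 5.63e-07). Columns that matched no labelled sample, 6 of counts and 6 of TPM, were not used.

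The quasi-likelihood F test of edgeR 4.0.16 (R 4.3.3) was run on the counts after TMM scaling and edgeR's own filter on low expression. Sex was a covariate, and p-values were adjusted by Benjamini-Hochberg over all genes tested, with a threshold of 0.05. The SE is the log2 fold change over the square root of F. Each comparison of arms used the libraries of 1 tissue and 1 experiment. The tissue contrast used control animals with experiment as a further covariate, interactions used both tissues, and the deletion was set against the antibody over the 15 libraries of a tissue. DESeq2 1.42.0, limma 3.58.1 voom and other settings were alternatives. CPM used TMM factors over the 15 libraries of a tissue. Levels per kilobase divide CPM by the union of exons. Correlations used log2 of CPM plus 0.5.

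Groups came from the labels. The sample sheet gives each library an animal number, so replicates are separate animals and the tissues pair by animal. Paired deviations from the group means correlated over genes with a median of 0.196 (0.08 to 0.388, above 0.1 in 12 of 15 animals). Over 42 replicate pairs, chi-square divided by its degrees of freedom was at least 5.84, so no library looked deposited more than once. The fits were also run on simulated data, and the outcome is not given here. The members and gene lists were chosen with earlier results of these data known, so no p was adjusted over a list alone. All 10 members are named in each comparison. From the other lists the genes with the smallest p are named, at most 4 per list and comparison (genes that only DESeq2 called were named after their values were seen), and the 3 most alike genes are given for each member, except for a few genes that are not reported here.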

Additional observations from a re-analysis of the deposited data

Results flagged for a closer look

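For the 10 members in the groups of 4 animals, 60 sets of 4 values in all, 1 library stood apart from the other 3 by Dixon's criterion in 3 cases, a rate that chance gives in about 5% of such groups. Tgfb2 was at 23.7 CPM in the Het forebrain of animal 21, where the others were at 20.5 to 21.0. Tgfbr2 was at 562 CPM in the Het isolate of animal 21, where the others were at 313 to 354. That isolate also had the lowest astrocyte and the highest microglia marker sum of its arm, and the part of those in the Tgfbr2 level was not tested. Smad7 was at 27.4 CPM in the anti-IL34 forebrain of animal 10, where the others were at 21.9 to 22.8.

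For Smad7 the deletion's effect in isolates less that in forebrain was -1.39 as a log2 difference, which passed without a block for the animal (edgeR adjusted p = 0.015). With animals as replicate blocks it was -1.36 and did not pass (edgeR adjusted p = 0.0889), and it passed in 2 of 7 fits that left out 1 animal. The arms overlapped in forebrain and did not in the isolates.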

How the results depend on the processing

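Each member in each comparison was refitted under each alternative. Of these refits 1156 kept direction and call, 139 passed where the reported value did not, 31 lost the call and in 54 an uncalled value changed sign. No called value changed sign in them. Counts of members past the threshold, in the order KO forebrain, KO isolates, anti-IL34 forebrain, anti-IL34 isolates, and the deletion and antibody tissue interactions, were 1, 4, 1, 0, 1 and 0. With no filter on low counts they were 2, 8, 3, 4, 4 and 2. DESeq2 gave 1, 8, 3, 8, 9 and 2, and limma voom with sample quality weights 1, 9, 3, 10, 9 and 7. Without sex terms the 2 isolate comparisons gave 7 and 3 and the deletion interaction 5. RLE size factors left 2 in KO isolates, without Tgfb1 and Nrros. A fit over 15 libraries gave 8 in KO isolates, 3 in anti-IL34 forebrain and 4 in anti-IL34 isolates. With 1 animal left out the counts ran from 0 to 1, 0 to 9, 0 to 2, 0 to 10, 0 to 9 and 0 to 7. In the tissue contrast 9 members passed.

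Counts of all genes past the threshold moved more, for the same 6 comparisons and then deletion less antibody in forebrain and in isolates. They were 120, 976, 123, 110, 599, 17, 2 and 0. With no filter they were 381, 1993, 349, 819, 1569, 1352, 114 and 1. DESeq2 gave 3887, 198, 2015, 3635, 1092, 28 and 35 from KO isolates onward. limma voom gave 5386 in KO isolates, 6970 in anti-IL34 isolates, and 5369 and 5091 in the interactions. Without sex terms these 4 counts were 2189, 983, 2400 and 222, and deletion less antibody in forebrain was 4. A fit over 15 libraries gave 2734 in KO isolates, 204 in anti-IL34 forebrain and 988 in anti-IL34 isolates, and RLE gave 48 in the antibody interaction. Leaving out 1 animal gave 55 to 117, 0 to 5756, 25 to 126, 0 to 6905, 0 to 5688, 0 to 5565, 0 to 33 and 0 to 5. A replicate block for the animal left 0 genes and 0 members in each interaction, and in the tissue contrast that block changed the call of Itgb8 alone.

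Tgfb1 and Nrros had the lowest levels per library in forebrain, and each arm held 3 or 4 animals. KO animal 3 and anti-IL34 animal 11 were each the only one of their sex in the arm. The cause of these changes was not tested.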

Other observations

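Across the tissues of control animals, other genes of the pathway also differed by edgeR's quasi-likelihood test with Benjamini-Hochberg adjustment, which called 83.5% of all genes. Of 19952 genes, 8085 were called higher in the isolates and 8578 lower. Of 21 signal regulators, 11 were higher in the isolates and 10 in forebrain. The repressors Tgif1 and Tgif2 were higher in the isolates by 6.74 (SE 0.224) and 6.30 (SE 0.188) on the log2 scale, while the ubiquitin ligase Nedd4l was at -1.95 (SE 0.0615) and the deubiquitinase Usp11 at -1.79 (SE 0.0501). Of 12 other receptors, 8 were higher and 3 lower, among them the co-receptor Eng with 2.64 (SE 0.134) and the activin receptors Acvr1b with -1.70 (SE 0.0752) and Acvr2a with -1.30 (SE 0.0796). Of 15 ligand storage and activation genes 13 were higher, among them Itgb5 with 4.94 (SE 0.139) and Lrrc32, which anchors latent TGF-beta on other cells, with 3.19 (SE 0.160). All 17 general targets were higher, among them Tgfbi, a secreted matrix protein, with 4.36 (SE 0.189).

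Over the 15 isolates, arms included, Tgfb2 had a Pearson correlation of 0.824 with the mean of the choroid plexus markers. Those markers summed to 10.3, 2142, 561 and 40.5 CPM in the anti-IL34 isolates of animals 2, 10, 11 and 24, where Tgfb2 was at 43.6, 49.2, 43.8 and 36.5 CPM. The points share libraries and scaling, and this is a description. Tubb3, a neuron marker, was listed at 0 in all 30 libraries, as Irf8 was.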
